A study of Arabidopsis thaliana with 9 samples.

Results

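The genes described here encode the cytosolic large ribosomal subunit proteins L3 to L24 of Arabidopsis thaliana. They were taken as 60 named loci that cover 22 proteins, each encoded by 2 to 4 near-copies (paralogs), and they were matched by locus identifier to the expression table. Of the 60 loci, 55 are among the 31124 loci of the table. The other 5, AT3G25520 (L5), AT1G74060 (L6), AT1G08360 (L10a), AT3G14600 (L18a) and AT1G09690 (L21), are not analysed here. The members were listed by name, without a threshold on these values, but with earlier results of these data known.

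Ribosomes build proteins, and the large subunit holds the site where peptide bonds form and the tunnel through which the new chain leaves. Its proteins are wrapped around ribosomal RNA and are needed in fixed proportions. In plants each is encoded by a small gene family, and growing tissues such as the root tip are known for high levels of these transcripts. Loss of single family members in Arabidopsis is known to cause pointed leaves, altered leaf polarity and auxin-related defects, and loss of some others stops embryo development.

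RNA came from the oscillation zone of the root, a stretch behind the tip where auxin response oscillates and the positions of later lateral roots are laid down. The control group was Col0 wild type, collected at the minimum of DR5::Luciferase, a luminescent reporter of auxin response. The second group was the potent line, an iaa18 allele that alters an auxin response repressor, and the third was the arf7 line, altered in an auxin response factor. Each group had 3 independent samples, dissected by hand at 7 dpi, and the labels state neither the phase of the mutant samples nor a reporter or background ecotype for each mutant. Luciferase expression was followed before dissection, per a treatment protocol shared by all 9 samples.

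The table gives 1 value per locus and genotype, in FPKM (sequenced fragments per length of transcript and per total of fragments), so the 3 samples of a group are already combined. The spread between samples and the depth are unknown, and no test could be run here. A member is said to have fallen only where the authors' deposited comparison table lists it. Ratios are log2((FPKM + 1)/(FPKM + 1)), a scale that understates changes of low genes. Both mutants were compared with the same control samples, so their ratios share any error of the control. In whole-tissue RNA, fewer cells of a type and less RNA per cell cannot be told apart.

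Of the altered genes, ARF7 had 12.0 FPKM in control tissue, 9.35 in potent and 2.64 in arf7, and IAA18 had 10.6, 21.8 and 19.1 FPKM, none of them in the authors' deposited table. The markers checked for the tissue differed between genotypes. The 2 endodermis markers CASP1 and CASP4 summed to 1688 FPKM in control tissue, 5116 in potent and 4348 in arf7. The 2 xylem markers XCP1 and XCP2 summed to 79.2, 384 and 372 FPKM, and the 2 root hair markers EXPA7 and EXPA18 to 219, 896 and 683 FPKM. The 4 markers of meristem and dividing cells summed to 2.54 FPKM in control tissue, 20.6 in potent and 0.818 in arf7, with PLT1 and PLT2 listed at 0 in all 3 genotypes. The 2 root cap markers BRN1 and SMB were also listed at 0 throughout, and the 2 green shoot markers summed to between 0.427 and 5.79 FPKM. The endodermis, xylem and root hair markers were thus higher in both mutants, in which the ribosomal protein genes below were lower, while the dividing-cell markers were higher in potent and lower in arf7. The part of these shifts in the results was not tested.

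Large subunit transcripts were lower in both mutants than in the control, and lower in arf7 than in potent. The 55 members summed to 23973 FPKM in control tissue, 13071 in potent and 10248 in arf7, which is 54.5% of control in potent and 42.7% in arf7. They made up 2.65% of all FPKM in control tissue, 1.49% in potent and 1.21% in arf7. The median member had 356 FPKM in control tissue, 169 in potent and 138 in arf7. Among the 100 highest loci of a genotype, 5 members stood in the control and 0 in either mutant.

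In potent, 52 of 55 members were at a lower value than the control, beside 33.6% of all loci and 48.6% of those with a mean of at least 1 FPKM. Loci with equal values count as neither lower nor higher. Of the 1651 abundant loci, those with a mean of at least 100 FPKM, 57.7% were lower. The median log2 ratio was −0.85, against 0 over all loci, −0.15 over those abundant loci, and −0.06 over the abundant loci outside the ribosomal and assembly lists. A difference of at least 2-fold downward was reached by 14 members, beside 9.71% of all loci and 18% of the abundant ones. Outside the ribosomal and assembly lists, 16.7% of abundant loci reached it, as did 11 of the 39 abundant members (28.2%). With each genotype divided by its sum over all loci, 7 members (12.7%) reached it, beside 9.32% of all loci and 16.1% of the abundant ones. Under that scaling the share of all 55 members is not above that of the abundant loci, which themselves include ribosomal genes. The share outside the lists was not counted under that scaling. Upward, 0 members reached 2-fold without that scaling, beside 12.1% of all loci and 16.8% of the abundant ones. The authors' deposited table lists 3 members as lower and 0 as higher in potent, beside 2.71% and 2.38% of all loci and 9.81% and 8.6% of the abundant ones. The share of members listed in potent, 5.45%, lies between these backgrounds.

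In arf7, 54 of 55 members were at a lower value than the control. That held for 35% of all loci, 50.5% of those with a mean of at least 1 FPKM and 53.5% of the abundant ones. The median log2 ratio was −1.21, against 0 over all loci, −0.07 over the abundant loci and 0.02 over those outside the ribosomal and assembly lists. At least 2-fold lower were 44 members, beside 7.85% of all loci and 17% of the abundant loci, and 0 were at least 2-fold higher, beside 9.03% and 13.7%. In arf7, 23 members fell and 0 rose according to the authors' deposited table, beside 1.78% and 1.41% of all loci and 8.18% and 6.54% of the abundant ones. Their log2 fold changes in the authors' deposited table ran from −1.71 to −1.23, with q-values from 0.00145 to 0.00945. The 3 members listed in potent were all listed in arf7 too, and made up 13.0% of the members listed in arf7. The same overlap over all loci was not counted, so it is not known whether this one is particular to the members.

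Arf7 was also below potent. Of the 55 members, 53 had a lower value in arf7 than in potent, with a median log2 ratio of −0.43. The share lower was 35% of all loci, 50.9% of those with a mean of at least 1 FPKM and 47.1% of the abundant ones. Only 2 members differed by at least 2-fold downward in that direction, beside 5.96% of all loci and 5.15% of the abundant loci. The order control, potent, arf7 from high to low held for 51 of the 54 members with a mean of at least 10 FPKM. The exceptions were AT3G53430 (L12), which was lowest in potent, and AT2G42740 (L11) and AT1G80750 (L7), which were highest in potent. Of all loci with a mean of at least 10 FPKM, 51.6% were lower in potent than in the control. In arf7, 48.2% of them were lower than in potent, but the share with the full order was not counted. No deposited comparison covers potent against arf7.

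**Figure D1:**
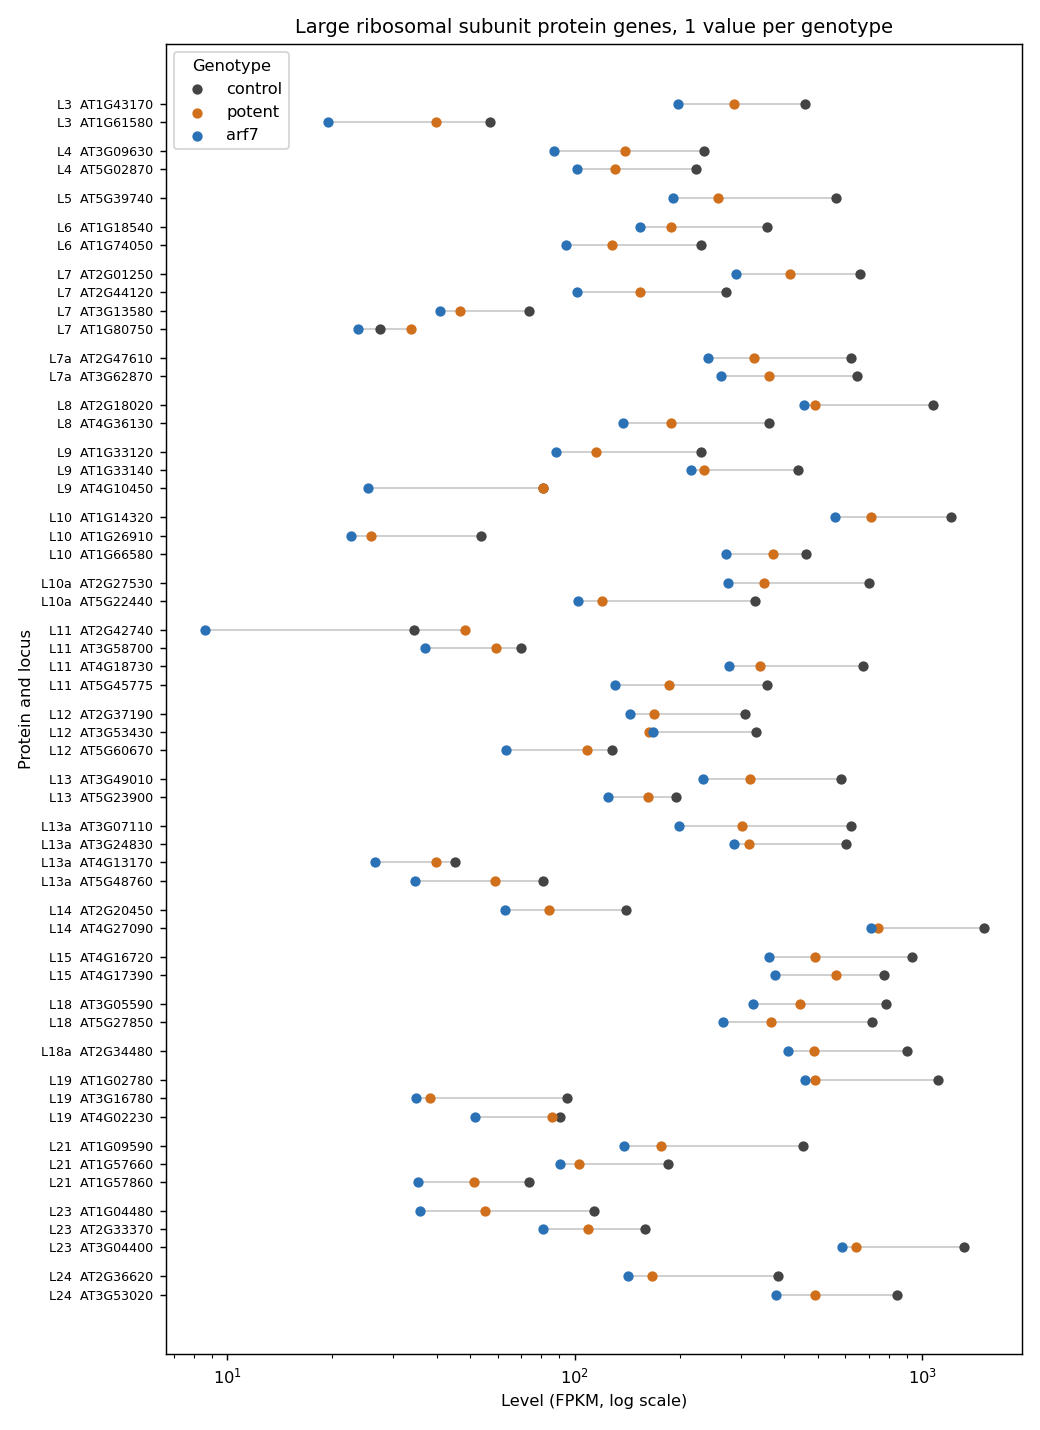
Level of each large subunit gene in FPKM (log axis), with 1 point per genotype and the genes grouped by protein; the line joins the lowest and highest genotype. The 54 genes with a mean of at least 10 FPKM are shown, and in 51 of them the control point lies to the right, the potent point in the middle and the arf7 point to the left. The share of all loci with this order was not counted.

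**Figure D2:**
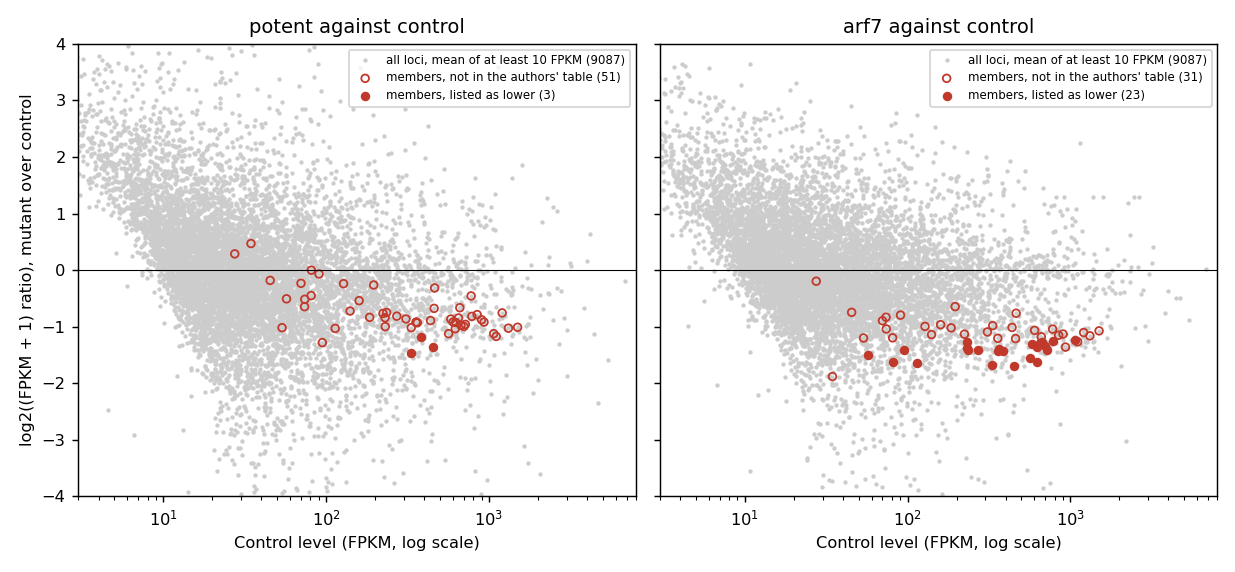
Log2 ratio of (FPKM + 1) against the control level (log axis) for potent and arf7, with the 54 large subunit genes of a mean of at least 10 FPKM over all loci of that level that are above 0 in the control. Filled points are the 3 members in potent and the 23 in arf7 that the authors' deposited table lists as lower; in arf7 all 54 lie below 0, and in potent 52 do, with AT2G42740 and AT1G80750 above it.

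Being listed did not follow the ratio closely. In arf7 the listed members began at a log2 ratio of −1.23, yet AT2G42740, the member with the lowest ratio at −1.88, is not listed. In all, 6 members with a ratio of −1.2 or lower in arf7 are absent from the authors' deposited table, and so is 1 in potent, AT3G16780 (L19), at −1.28. The 20 members with at least 500 FPKM in the control had median log2 ratios of −0.92 in potent and −1.27 in arf7. For the 22 members between 100 and 500 FPKM the medians were −0.85 and −1.21. For the 12 members between 10 and 100 FPKM they were −0.34 in potent and −1.12 in arf7, so the low members differed less from the control in potent while keeping nearly the ratio of the high ones in arf7.

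The catalytic core and exit tunnel are represented by L3 and L8, which lie near the site of peptide bond formation, L4, which lines the tunnel, and L10, which helps to position transfer RNA. Their 10 genes summed to 57.8% of control in potent and 44.9% in arf7, and 4 of them fell in arf7 by the authors' deposited table. AT2G18020, the main L8 gene, known as an embryo-defective locus, had 1069 FPKM in control tissue, 489 in potent and 455 in arf7, and its fall in arf7 has a q-value of 0.00945 in the authors' deposited table. AT4G36130, the second L8 gene, had 363, 189 and 137 FPKM and is listed in arf7 only.

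The main L10 gene, AT1G14320 (SAC52), had 1205 FPKM in control tissue, 712 in potent and 559.5 in arf7, and is not listed. AT1G66580, another L10 gene, which RefSeq names SAG24 for senescence-associated, stayed closer to the control than most members, at 464, 372 and 273 FPKM. Most L3 transcript came from AT1G43170, with 460.2, 287 and 198 FPKM. Its low partner AT1G61580 fell in arf7 from 57.03 to 19.4 FPKM, with 39.8 FPKM in potent. The L4 genes AT3G09630 and AT5G02870 were nearly equal in the control, at 235 and 223 FPKM. In arf7 they had 87.0 and 101 FPKM, and AT3G09630 alone of the pair is listed.

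L5 and L11 bind the 5S ribosomal RNA and enter the large subunit with it as one particle. Their 5 genes summed to 52.6% of control in potent and 38.0% in arf7, the lowest arf7 share of the groups of roles. AT5G39740, the L5 gene RPL5B, had 565 FPKM in control tissue, 258 in potent and 191 in arf7, and it fell in arf7 by 1.56 on the log2 scale with a q-value of 0.00145 in the authors' deposited table. The other L5 gene, AT3G25520, has 92.7% identical coding sequence and is not analysed here, so the value of AT5G39740 is uncertain. Both abundant L11 genes fell in arf7 as well. AT4G18730 had 672, 341 and 278 FPKM and AT5G45775 had 356, 187 and 131 FPKM.

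AT2G42740, a low gene named RPL16A in RefSeq, was the only measured L11 gene that was highest in potent. The same order of genotypes held for AT1G80750 (L7) and, outside the members, for genes such as AT2G37600 (L36). AT2G42740 had 34.5 FPKM in control tissue, 48.1 in potent and 8.61 in arf7, so arf7 was 4.00-fold below the control and 5.59-fold below potent on FPKM. None of these differences is in the authors' deposited table. The protein it encodes is 99.5% identical to those of the other L11 genes, which are 100% identical to each other. The fourth L11 gene, AT3G58700, had 70.0, 59.3 and 37.1 FPKM. AT2G42740 and AT3G58700 have 91.1% identical coding sequence, so reads can be split between them wrongly.

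L10a forms the stalk at which used transfer RNA leaves, and L12 sits at the base of the stalk that recruits translation factors. AT5G22440, an L10a gene, had 330.5 FPKM in control tissue, 119.6 in potent and 102 in arf7, and it fell in both mutants. In the authors' deposited table its log2 fold changes are −1.47 and −1.69, each with a q-value of 0.00145. It had the lowest log2 ratio of all members in potent. The other measured L10a gene, AT2G27530, known as PIGGYBACK1 from its effect on leaf shape, had 702, 351 and 275 FPKM and is listed in arf7 only.

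None of the L12 genes is listed in either mutant. AT3G53430 had 333 FPKM in control tissue, 164 in potent and 168 in arf7, and AT2G37190 had 309, 169 and 144 FPKM. AT5G60670 was close to the control in potent, with 128 and 108 FPKM, and had 63.5 FPKM in arf7. The stalk genes together summed to 50.6% of control in potent and 41.8% in arf7.

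L19, L23 and L24 lie at the face that joins the small subunit. Their 8 genes summed to 50.6% of control in potent and 43.1% in arf7. AT2G36620, the L24 gene RPL24A, had 383 FPKM in control tissue, 167 in potent and 142 in arf7, and it fell in both mutants, with q-values of 0.00683 and 0.00145 in the authors' deposited table. AT3G53020, the more abundant L24 gene, is SHORT VALVE1, known in Arabidopsis for restarting translation after short upstream reading frames, including those of auxin response factor transcripts. It had 846, 489 and 379.6 FPKM and is not listed.

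AT3G04400, the main L23 gene, had 1316, 645 and 587 FPKM, and AT1G02780, the main L19 gene, had 1107, 490.2 and 459 FPKM. Both are known as embryo-defective loci, and neither is listed, although each was at least 2-fold lower in both mutants. Of the low genes of this group, AT1G04480 (L23) fell in arf7 from 114 to 35.8 FPKM and AT3G16780 (L19) from 94.6 to 35.0 FPKM. AT4G02230 (L19) had 90.3 FPKM in control tissue, 86.0 in potent and 51.5 in arf7.

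The remaining 27 genes encode proteins of the outer shell and of the ribosomal RNA domains. They summed to 55.6% of control in potent and 42.7% in arf7, with 1 member listed in potent and 11 in arf7. AT1G09590, an L21 gene, had 452 FPKM in control tissue, 176 in potent and 138 in arf7, and it fell in both mutants with log2 fold changes of −1.36 and −1.71 in the authors' deposited table. That entry joins the gene with its neighbour AT1G09580, and another L21 gene, AT1G09690, with 96.2% identical coding sequence, is not analysed here, so its value is uncertain. AT3G07110, an L13a gene, fell in arf7 from 621 to 199.96 FPKM, with 302 in potent.

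The highest member in every genotype was AT4G27090 (L14), with 1499 FPKM in control tissue, 743 in potent and 710.5 in arf7, and it is not listed. Both L18 genes and both L7a genes fell in arf7. AT3G05590 and AT5G27850 (L18) had 785 and 716 FPKM in the control and 326 and 268 in arf7, while AT2G47610 and AT3G62870 (L7a) had 625 and 650.1 FPKM in the control and 242 and 264 in arf7. In potent these 4 genes lay between 328 and 444 FPKM. AT3G49010 (L13), AT2G44120 (L7), AT1G74050 (L6) and AT1G33120 (L9) fell in arf7 too, to between 88.1 and 233 FPKM from between 229.9 and 583 FPKM. The L6 gene AT1G74060, with coding sequence 94.2% identical to AT1G74050, is not analysed here, so the value of AT1G74050 is uncertain.

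Several genes of this group were abundant but are not listed. AT4G16720 and AT4G17390 (L15) had 932 and 777 FPKM in control tissue, 492 and 565 in potent and 362 and 376 in arf7. AT2G34480 (L18a) had 900.4, 489 and 410.2 FPKM. The member nearest to the control in arf7 was AT1G80750, counted as L7, with 27.4 FPKM in control tissue, 33.7 in potent and 23.8 in arf7. Its protein is only 41.9% to 42.9% identical to those of the other L7 genes. Among the other members with the highest ratios in arf7 were AT5G23900 (L13), with 196, 163 and 125 FPKM, AT4G13170 (L13a), with 45.2, 39.7 and 26.5 FPKM, and AT3G13580 (L7), with 73.6, 46.6 and 40.8 FPKM. AT3G51190, counted as L8, was listed at 0 for control tissue, at 0.143 FPKM for potent and at 0.187 for arf7.

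With the FPKM of measured paralogs summed, the transcripts for all 22 proteins had a lower value in both mutants. The log2 ratio per protein ran from −1.13 for L10a, of which 2 of 3 genes were measured, to −0.63 for L10 in potent. In arf7 it ran from −1.56 for L5, of which 1 gene was measured, to −1.01 for L10. Single genes were spread more widely than proteins, from −1.46 to 0.47 in potent and from −1.88 to −0.20 in arf7 among members with a mean of at least 10 FPKM.

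The shares of a protein's transcripts held by its paralogs moved by at most 11.2 percentage points. For 16 of the 20 proteins with several measured paralogs, the leading paralog was the same in all 3 genotypes. No paralog's share of its protein's summed FPKM moved by 15 percentage points or more, and the median over proteins of the largest movement was 4.86 points in potent and 3.31 in arf7. The largest movement in both mutants was that of AT1G09590 within L21, from 63.6% in the control to 53.3% in potent and 52.4% in arf7. Only 3 of the 4 L21 genes were measured, and the value of AT1G09590 is itself uncertain. In L13 the share of AT5G23900 was 25.1% in control tissue, 33.8% in potent and 34.8% in arf7.

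The lead differed between genotypes for 4 proteins. In L15, AT4G16720 held 54.5% in the control, while AT4G17390 held 53.5% in potent and 51.0% in arf7. In L13a the lead passed from AT3G07110, with 46.0% in the control, to AT3G24830, with 44.3% in potent and 52.4% in arf7, where AT3G07110 held 36.5%. AT5G02870 led L4 in arf7 with 53.7%, and AT2G37190 led L12 in potent with 38.4%. With no spread between samples, it cannot be said whether these shares differ beyond error.

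**Figure D3:**
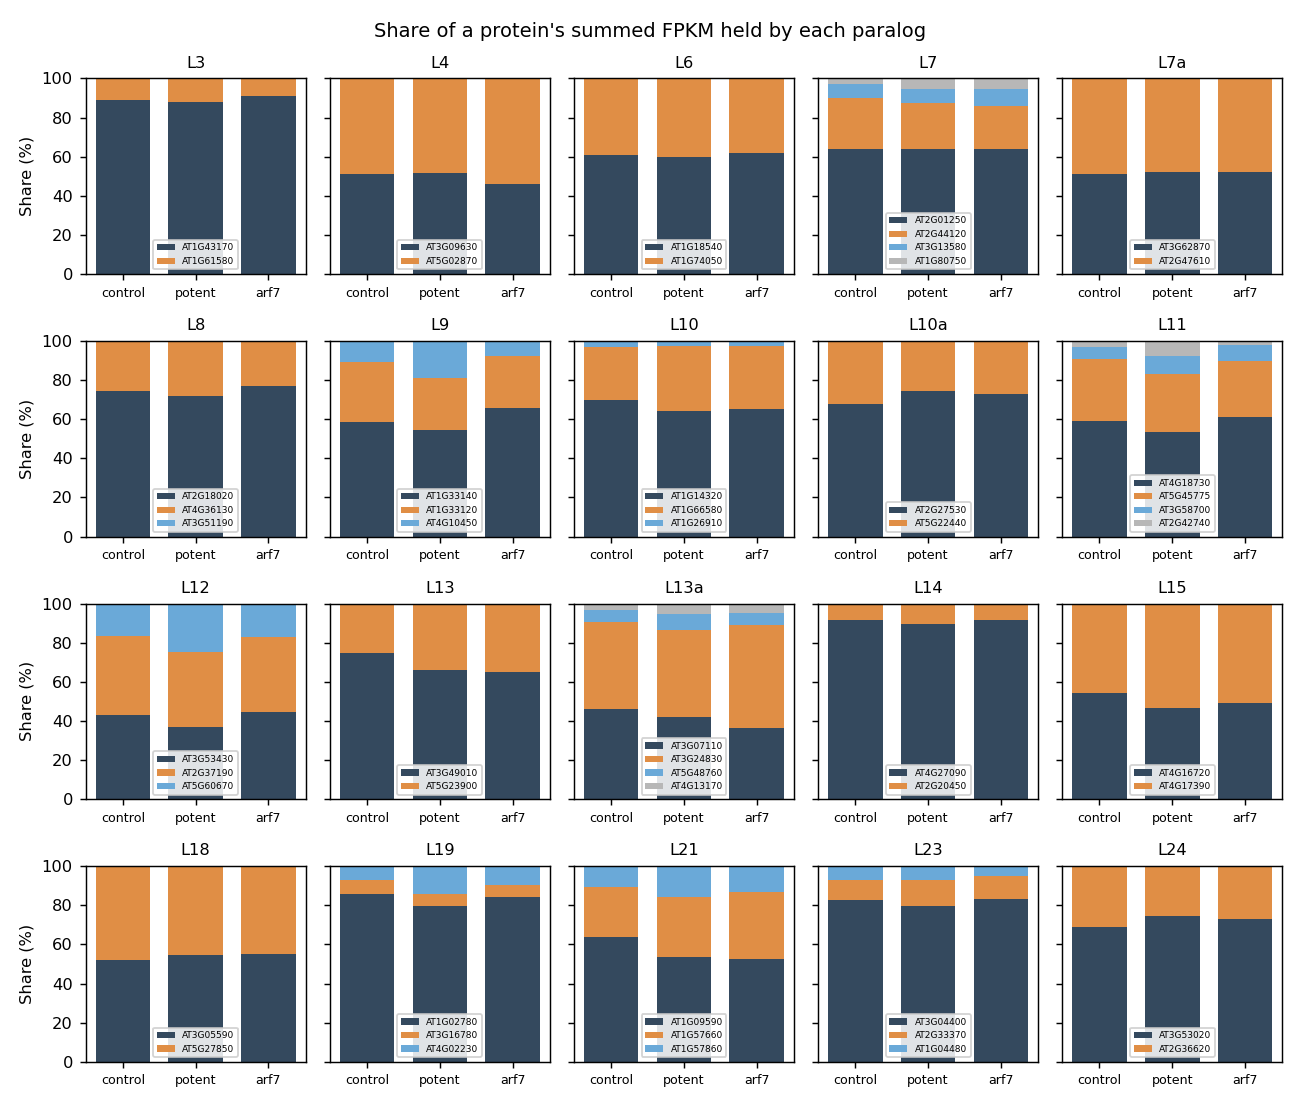
Share of each protein's summed FPKM (%) held by its paralogs in the control, potent and arf7, for the 20 proteins with more than 1 measured paralog; colours order the paralogs by their share in the control. The largest movement is that of AT1G09590 in L21, by 11.2 percentage points in arf7.

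Within L9, 1 paralog differed from the other two in potent. AT1G33140, named PIGGYBACK2 from its effect on leaf shape, had 438 FPKM in control tissue, 235 in potent and 216 in arf7. AT1G33120 had 231, 115 and 88.1 FPKM. AT4G10450 (RPL9D in the authors' deposited table) stood at 80.9 FPKM in control tissue and 80.8 in potent, and fell to 25.5 in arf7, by 1.67 on the log2 scale with a q-value of 0.00145 in the authors' deposited table. Its share of L9 was 10.8% in control tissue, 18.8% in potent and 7.72% in arf7. AT1G33120 and AT1G33140 have 99.1% identical coding sequence and encode the same protein, so reads can be split between them wrongly, whereas AT4G10450 shares at most 80.3% of coding bases with them.

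The upstream sequences of the L9 genes are shown for how far the paralogs share them. RPL5B is added as an abundant member that fell in arf7. Each is the stretch of 250 bases before the annotated gene start, 5′ to 3′ on the gene's strand, read from the RefSeq genome TAIR10.1, and capitals mark site II matches (TGGGCC or TGGGCT on either strand).
AT5G39740 (L5), chr5:15903029-15903278, plus strand: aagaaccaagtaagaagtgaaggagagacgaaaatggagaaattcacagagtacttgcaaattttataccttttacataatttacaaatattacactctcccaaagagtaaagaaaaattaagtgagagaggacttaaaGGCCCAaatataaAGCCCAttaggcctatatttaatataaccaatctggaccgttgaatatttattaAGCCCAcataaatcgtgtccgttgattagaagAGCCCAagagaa
AT1G33120 (L9), chr1:12010629-12010878, plus strand: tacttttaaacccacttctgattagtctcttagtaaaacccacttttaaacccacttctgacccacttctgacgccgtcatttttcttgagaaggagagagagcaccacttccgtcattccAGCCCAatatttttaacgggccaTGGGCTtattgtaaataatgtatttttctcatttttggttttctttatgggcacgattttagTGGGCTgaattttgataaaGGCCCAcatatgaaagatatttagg
AT1G33140 (L9), chr1:12022975-12023224, plus strand: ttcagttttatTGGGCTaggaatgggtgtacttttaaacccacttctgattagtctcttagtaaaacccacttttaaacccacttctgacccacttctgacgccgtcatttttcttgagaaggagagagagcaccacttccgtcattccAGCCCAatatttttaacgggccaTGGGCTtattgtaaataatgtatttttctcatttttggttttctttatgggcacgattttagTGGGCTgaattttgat
AT4G10450 (L9), chr4:6464559-6464808, minus strand: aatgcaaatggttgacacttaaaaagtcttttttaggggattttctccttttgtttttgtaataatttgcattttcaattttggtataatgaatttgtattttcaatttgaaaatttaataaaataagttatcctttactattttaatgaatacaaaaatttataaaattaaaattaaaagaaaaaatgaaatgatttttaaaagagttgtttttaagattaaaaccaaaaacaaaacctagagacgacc

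The upstream stretches of AT1G33120 and AT1G33140 share an unbroken run of 222 bases. The longest run that either shares with AT4G10450 is 8 bases. Each of the first 3 stretches holds 4 site II matches, which in RPL5B lie 111, 98, 44 and 12 bases before the start, and that of AT4G10450 holds none. A match describes letters only and is not a shown binding site.

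Telo-boxes, the other element known from Arabidopsis ribosomal protein promoters, lay at varying distances from the start. The motif is AAACCCTA, or TAGGGTTT where it is read on the other strand. It is shown in capitals for the L5 and L9 genes above and for the L11 genes AT2G42740 and AT4G18730, which differed most within their protein in potent, with 10 bases on each side. In the order shown, the motif begins at positions 4, −4, 25, 14, −198 and −30 relative to the gene start, negative values lying upstream.
AT5G39740 (L5), chr5:15903272-15903299, plus strand: aagagaactcTAGGGTTTtgtcttataa
AT1G33120 (L9), chr1:12010865-12010892, plus strand: gaaagatattTAGGGTTTtttctcttga
AT1G33140 (L9), chr1:12023239-12023266, plus strand: gaaagatattTAGGGTTTtttctcttga
AT4G10450 (L9), chr4:6464528-6464555, minus strand: atataagcttTAGGGTTTtcttctctct
AT2G42740 (L11), chr2:17791484-17791511, plus strand: catcgaatacTAGGGTTTtggaaagttt
AT4G18730 (L11), chr4:10302123-10302150, plus strand: ttatttgaagAAACCCTAgtgtctttca

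Over all 60 members, in the window from 250 bases before to 50 after the start, 33 (55.0%) held a telo-box and 53 (88.3%) held a site II match. Among 27443 protein-coding genes the shares were 6.22% and 21.7%, and among 1545 such genes with a mean of at least 100 FPKM they were 8.80% and 32.0%. Both motifs stood together in 29 members (48.3%), against 2.20% of all genes. A telo-box lay wholly within the first 50 bases after the start in 19 members and wholly upstream of it in 14. Site II matches lay wholly upstream in 45 members and wholly in the first 50 bases in 21. A match that spans the start, such as the telo-box of AT1G33120, is in neither count. Members with several matches can be in both.

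Ratios overlapped between the 2 larger motif groups. Among members with a mean of at least 10 FPKM, the 25 with both motifs had median log2 ratios of −0.87 in potent and −1.14 in arf7. The 22 with site II alone had −0.86 and −1.27. In potent the ratios ran from −1.28 to 0.47 with both motifs and from −1.46 to 0.29 with site II alone. The 4 with a telo-box alone had −0.58 and −1.32, and the 3 with neither had −0.84 and −1.27. Groups of 4 and 3 genes are too small to compare.

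**Figure D4:**
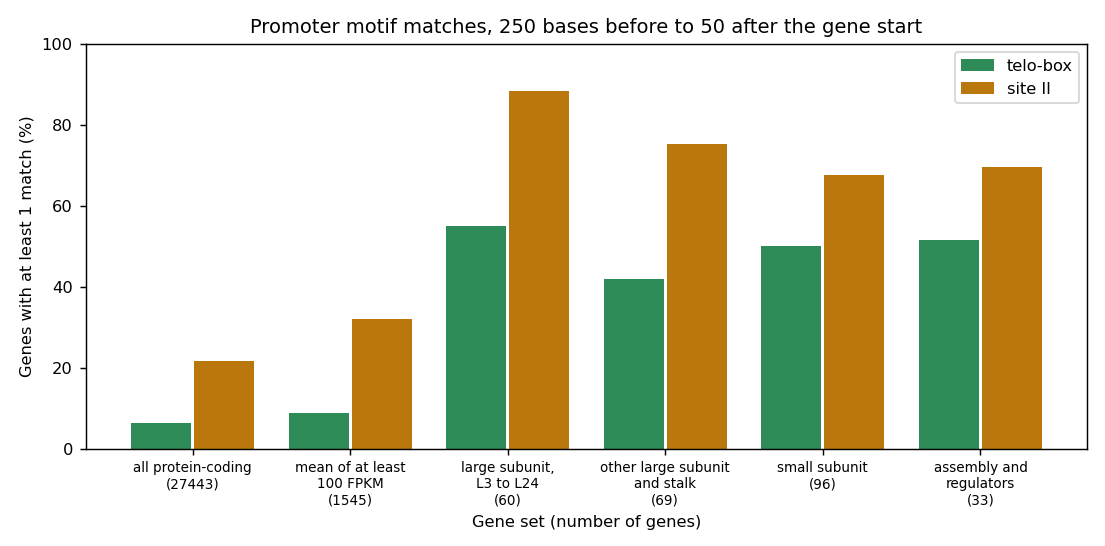
Share of genes (%) with at least 1 telo-box or site II match in the window from 250 bases before to 50 after the gene start, by gene set, with the number of genes below each pair of bars. In large subunit genes the bars reach 55.0% and 88.3%, against 6.22% and 21.7% in all protein-coding genes.

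Similarity between paralogs bears on how their reads are assigned. Of 58 paralog pairs, 7 have at least 90% identical coding sequence, 41 between 80% and 90%, and 10 less. The median difference in log2 ratio within a pair was 0.21 in potent and 0.27 in arf7 for the 4 measured pairs of the most alike class. It was 0.48 and 0.33 for the 34 measured pairs of the middle class, and 0.85 and 0.61 for the 9 of the least alike class. Of these 9, 3 hold the divergent L7 gene AT1G80750, and without them the medians were 0.17 and 0.46, so the potent value of this class rests on that gene.

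The rest of the ribosome had values much like those of L3 to L24. Of 66 measured genes for the other large subunit and stalk proteins, 56 were lower in potent and 60 in arf7, with median log2 ratios of −0.82 and −1.06. The authors' deposited table lists 2 of them (3.03%) as lower in potent and 17 (25.8%) in arf7, beside 2.71% and 1.78% of all loci and 9.81% and 8.18% of the abundant ones. Of 91 small subunit genes, 76 and 81 were lower, the medians were −0.83 and −1.09, and 3 (3.30%) and 26 (28.6%) are listed as lower. The listed shares in potent are thus near that of all loci and below that of abundant loci. None of either list is listed as higher. RPP3B (AT5G57290), a stalk protein gene, fell from 927 FPKM in the control to 343 in potent and 358 in arf7. RPL17A (AT1G27400) fell from 377 to 114 FPKM in arf7, and RPS4D (AT5G58420) fell from 397 to 172 in potent and 132 in arf7. A few were above the control in potent without being listed, such as the L36 gene AT2G37600, with 79.0, 153 and 55.5 FPKM. Of the genes with a mean of at least 10 FPKM, those above it in both mutants were the L37 gene AT1G15250, with 14.8, 22.8 and 16.5 FPKM, and the small subunit S9 gene AT5G39850, with 4.25, 23.7 and 7.85 FPKM. At lower levels the same held for AT2G16360 (S25), with 0.447, 10.04 and 1.78 FPKM, and AT3G09680 (S23), with 1.03, 5.69 and 1.12 FPKM. Among genes with a mean of at least 10 FPKM, the lowest ratio of the small subunit in arf7 was that of AT1G23410 (S27a), with 20.5, 13.6 and 4.37 FPKM. All ribosomal protein genes together made up 10.6% of all FPKM in control tissue, 5.93% in potent and 5.08% in arf7.

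Genes for ribosome assembly and its regulators did not follow the ribosomal proteins. Of 30 measured, 23 were higher and 7 lower in potent, with a median log2 ratio of 0.53, whereas 11 were higher and 19 lower in arf7, with a median of −0.18. Over all loci 35.5% were higher in potent and 35% in arf7, and over the abundant loci 42.3% and 46.5%. Only 1 of the 30 is itself that abundant. Of the 22 with a mean of at least 10 FPKM, 3 were lower in potent and 13 in arf7, beside 51.6% and 51.3% of all loci at that level. In potent 3 of the 30 rose by the authors' deposited table, and in arf7 0 are listed. The share listed as higher in potent was 2.38% of all loci, 5.76% of those with a mean of at least 10 FPKM and 8.6% of the abundant ones. The assembly genes summed to 185% of control in potent and 91.2% in arf7. The dividing-cell markers CDKB2;1 and CYCB1;1 were also higher in potent and were below the control in arf7. CDKB2;1 had 2.39, 17.8 and 0.783 FPKM and is listed as higher in potent by the authors' deposited table. CYCB1;1 had 0.149, 2.81 and 0.0351 FPKM. The part of dividing cells in the assembly gene result was not tested. NOP56 (AT1G56110), a core protein of the particles that modify ribosomal RNA, rose in potent from 34.3 to 83.5 FPKM, with 29.2 in arf7. AT5G27120, a NOP58 gene of the same particles, rose from 15.8 to 49.9 FPKM, with 19.5 in arf7. eIF6A (AT3G55620), whose counterpart in yeast and animals holds new large subunits apart from small ones by binding at L23 and L24, rose from 71.7 to 185 FPKM, with 89.3 in arf7.

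Genes for the nucleolar proteins nucleolin (NUC-L1) and fibrillarin (FIB1) were also higher in potent without being listed. They had 53.0, 129 and 59.2 FPKM and 66.6, 155 and 68.3 FPKM. Another fibrillarin gene, FIB2, had 45.7, 112 and 31.4 FPKM, so in arf7 it was below the control, unlike NUC-L1 and FIB1. S6K1, a kinase of ribosomal protein S6 in the TOR pathway, had 47.5 FPKM in control tissue, 20.7 in potent and 22.3 in arf7. Its near copy S6K2 had 9.92, 14.5 and 14.7 FPKM, and TOR itself had 2.73, 1.91 and 2.38 FPKM. None of these genes is in the authors' deposited table, and NUC-L1, FIB1, FIB2 and TOR were picked as examples after their values were seen.

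**Figure D5:**
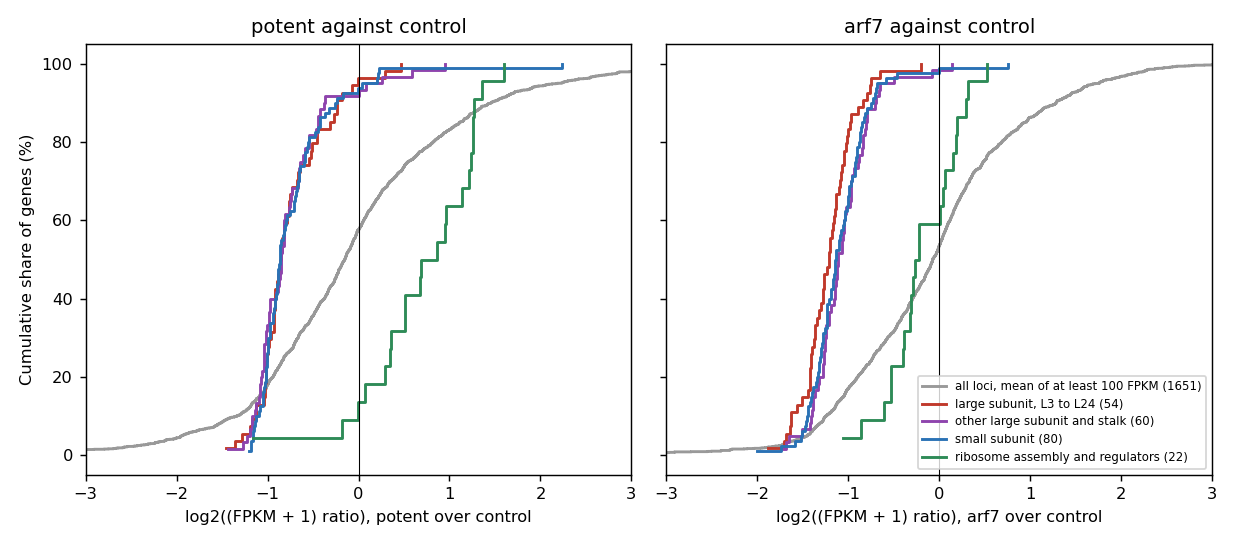
Cumulative share of genes (%) by log2 ratio of (FPKM + 1), potent and arf7 against control, for large subunit genes L3 to L24, the other ribosomal lists and assembly genes (mean of at least 10 FPKM) and for all loci with a mean of at least 100 FPKM. The 3 curves of ribosomal protein genes run together to the left of 0 in both panels, and the assembly genes lie to the right of 0 in potent and around it in arf7.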

How the data were processed

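RNA was measured in 3 samples each of control, potent and arf7, made into full-length cDNA libraries from very small inputs by a published protocol, per the labels. Tools named in the submitters' processing notes, without versions or roles, are TopHat and TopHat2, Bowtie and Bowtie2, Cufflinks and Cuffdiff, with the build TAIR10. The authors deposited 1 value per locus and genotype without a unit in the header, taken here as FPKM because of the tools named. A relative unit such as FPKM falls for all genes when a few transcripts take more of the total. The 100 highest loci took 20.6%, 23.2% and 22.9% of the sum in control, potent and arf7. The authors' deposited comparison table holds 2577 entries, each with its log2 fold change and its q-value, and 490 of the fold changes are text for loci at 0. The numeric ones match, within 0.0001, the log2 ratios computed from the FPKM table. It holds no entry below 1.14 on the log2 scale in size, so absence from it does not show equal levels.

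Replicates were pooled by the authors, so no test, error or paired fit was possible here, as the design foresaw. The depth is unknown, and no interval was computed. Samples were grouped by title. Ratios used a pseudocount of 1 FPKM and a threshold of 2-fold, computed in Python 3.11.15 with pandas 2.3.3 and numpy 2.4.6, and the counting was tested on simulated data. Upstream sequences and coding identity (Biopython 1.88) came from RefSeq's TAIR10.1 genome and annotation, since no tables of promoters or proteins were used here, and site II was searched as TGGGCC or TGGGCT, with overlapping matches counted separately. Members and lists were chosen with earlier results of these data known. Genes were named by a rule: those in the authors' deposited table, the 10 highest in the control, the 6 highest and 6 lowest ratios in each mutant, changed leads, and those at 0. Members needed as paralogs of these are named with them. Pseudocount, filters, fold and scaling were varied. Libraries of this kind do not mark strand per the protocol named, so overlapping genes are uncertain.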

Additional observations from a re-analysis of the deposited data

How the results depend on the processing

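No median log2 ratio changed sign under the alternatives tried. Counts, shares and summed levels were graded by size only, so a change of direction could not show in them. Of 76 alternative values, 45 kept their printed value or, for counts, stayed within 1.5 times. The median log2 ratio of members in potent was −0.85, and it was −0.86 without a pseudocount or with a mean filter of 1 or 10, −0.89 with paralogs summed, −0.81 after division by the sum of all loci, −0.76 by that sum without the 100 highest loci of any genotype, and −0.88 when centred on the median locus. In arf7 it was −1.21, against −1.22 with a pseudocount of 0.1, −1.23 without one, −1.24 with paralogs summed, and −1.12, −1.07 and −1.199 under the same 3 scalings. For potent against arf7 it was 0.43, against 0.44 without a pseudocount, 0.38 with paralogs summed, and 0.38, 0.38 and 0.39. The scaling without the 100 highest loci shifts all ratios by 0.09 in potent and 0.14 in arf7. Summed levels in percent of the control were 56.1 in potent and 45.6 in arf7 after division by the sum of all loci, and 58.1 and 47.2 without the 100 highest.

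Members at least 2-fold lower in potent numbered 14 (25.5%), above the 18% of the abundant loci, and 40 at 1.5-fold. Under either scaling by a sum they numbered 7 (12.7%), below the abundant loci at 16.1% and, without the 100 highest, 15.0%. These abundant loci include ribosomal genes, and the share without them was not counted under the scalings. In arf7 the count of members stayed between 34 and 53. Members higher than the control were 5 in potent without the 100 highest loci and 0 in arf7 with a mean of at least 1. With a pseudocount of 0.1, 1 member was at least 2-fold higher in each mutant, the one listed at 0 in the control, since a smaller pseudocount enlarges ratios of low values. No paired analysis was possible because the table holds 1 value per genotype, although the labels number the samples 1 to 3 in each group. Leaving out a replicate was not run for the same reason. Leaving out the pairs of AT1G80750 from the least alike paralog pairs was chosen after seeing the data.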
